A study of Mus musculus with 6 samples.

Results

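The vacuolar proton pump (V-ATPase) was examined in mouse pylorus through 10 of its subunit genes, of 39179 genes measured. The genes were taken by symbol: Atp6v0d2, Atp6v0d1, Atp6v0a1, Atp6v0a2, Atp6v0a4, Atp6v0b, Atp6v0c, Atp6v0e, Atp6v1a and Atp6v1b1. Atp6v0d2 was picked because its level differed between the groups, so its difference is given as a description, with no test. The pylorus is the stomach's outlet to the gut, and RNA was sequenced from its epithelium and mesenchyme after the muscle layer had been removed. There were 3 Sox2 KO libraries and 3 Sox2 WT libraries. Sox2 KO mice carried CreER, a tamoxifen-activated Cre recombinase, at Rosa26, a locus expressed in most cell types, and were homozygous for a floxed Sox2 gene. Sox2 WT mice had that floxed gene and no CreER. All mice were C57BL/6 x 129 mixed, received tamoxifen at 8 weeks of age and were sampled 2 weeks later. The sample labels give an age of 8 weeks and the series text an age of 10 weeks. Loss of Sox2 and presence of CreER cannot be told apart in this design.

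The V-ATPase is a rotary machine. Its cytosolic V1 sector hydrolyses ATP and turns a rotor that drives protons through the membrane-bound V0 sector, which acidifies lysosomes, endosomes and secretory compartments and, in some cells, the space outside the plasma membrane. The d subunit sits on top of the membrane rotor ring and couples it to the central stalk of V1. Most subunits have a form found in nearly all cells, and several also have forms restricted to few cell types. Atp6v0d1 encodes the widespread form of d. In the mouse, Atp6v0d2 is known from osteoclasts, where it is needed for precursor cells to fuse, and from kidney, lung and macrophages. The acid of the gastric lumen is made by another enzyme, the H,K-ATPase of parietal cells.

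Both forms of the d subunit are encoded by transcripts that differ enough to be told apart by sequencing reads. Atp6v0d2 (ENSMUSG00000028238) lies on chromosome 4, 19876841 to 19922605, minus strand, and Atp6v0d1 (ENSMUSG00000013160) on chromosome 8, 105524465 to 105566047, minus strand, in the mouse build GRCm38 (mm10). Their coding sequences of 1050 and 1053 bases matched at 692 of 1050 aligned positions, or 65.9%, and the longest identical run was 17 bases. No stretch of 50 bases of either transcript occurred in the transcript of another gene, and no annotated gene overlapped either of them.

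The values are RPKM, read counts scaled by gene length and by the library's read total. A comparison of levels between genes therefore depends on the length used for each gene. The read totals behind the RPKM were estimated from the steps between values and from annotated exon lengths. They ranged from 29 to 33.8 M reads in Sox2 KO libraries and from 24.1 to 28 M reads in Sox2 WT libraries. Sox2, the targeted gene, was at 0.342, 0.21 and 0.42 RPKM in Sox2 KO libraries, against 11.1, 9.03 and 10.9 RPKM in Sox2 WT libraries (log2 fold change -3.72, SE 0.147, limma adjusted p = 2.93e-04). In male libraries alone the Sox2 log2 fold change was -3.82 and did not pass (limma adjusted p = 0.154). The pyloric epithelium markers Gast, Gkn1, Gkn2, Tff1, Muc5ac and Pdx1 were present in all 6 libraries. By Xist and Y-linked genes, all 3 Sox2 KO libraries were male, as was Sox2 WT replicate 1, whereas the other Sox2 WT libraries were female. Whether each library came from its own mouse is not stated in the labels, so a p-value here reflects only how much these libraries vary.

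Atp6v0d2 was higher in all Sox2 KO libraries. Sox2 KO replicates 1 to 3 had 11.1, 19.5 and 16.8 RPKM, against 1.94, 1.65 and 2.24 RPKM for Sox2 WT replicates 1 to 3. The groups did not overlap, and Sox2 KO replicate 1 was the lowest of its group. The means were 15.8 ± 4.27 RPKM in Sox2 KO libraries and 1.94 ± 0.298 RPKM in Sox2 WT libraries (SD, n = 3 each), a ratio of 8.13. On the log2(RPKM + 0.5) scale, which understates changes of low values, the difference was 2.71 (SE 0.21). Of the 14045 genes tested, 10 had a larger absolute log2 fold change. With sex as a covariate, which sets the Sox2 KO libraries against the only male Sox2 WT library, the log2 fold change was 2.70. In bulk tissue, more cells that express a gene and more RNA per cell cannot be told apart.

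Each library held at least 125 reads of Atp6v0d2. The smallest whole numbers of reads that give the deposited values were 899, 1536 and 1541 in Sox2 KO libraries, against 127, 125 and 155 in Sox2 WT libraries. The gene length these reads imply, 2715 bases, is close to the 2716 bases covered by the annotated exons. The read total behind that length was itself set from annotated exon lengths, which gave totals near a common value in 126 of 396 sampled genes. The 95% Poisson intervals cover counting error only and take these numbers as the true reads. The interval was 841 to 960 reads in Sox2 KO replicate 1, the Sox2 KO library with the fewest reads. It was 132 to 181 reads in Sox2 WT replicate 3, the Sox2 WT library with the most. The numbers are not scaled for read totals, and the intervals are a description, not a test of the groups. The spread among Sox2 KO libraries, 0.78 between the lowest and the highest on the log2 scale, was larger than the 0.35 among Sox2 WT libraries.

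**Figure D1:**
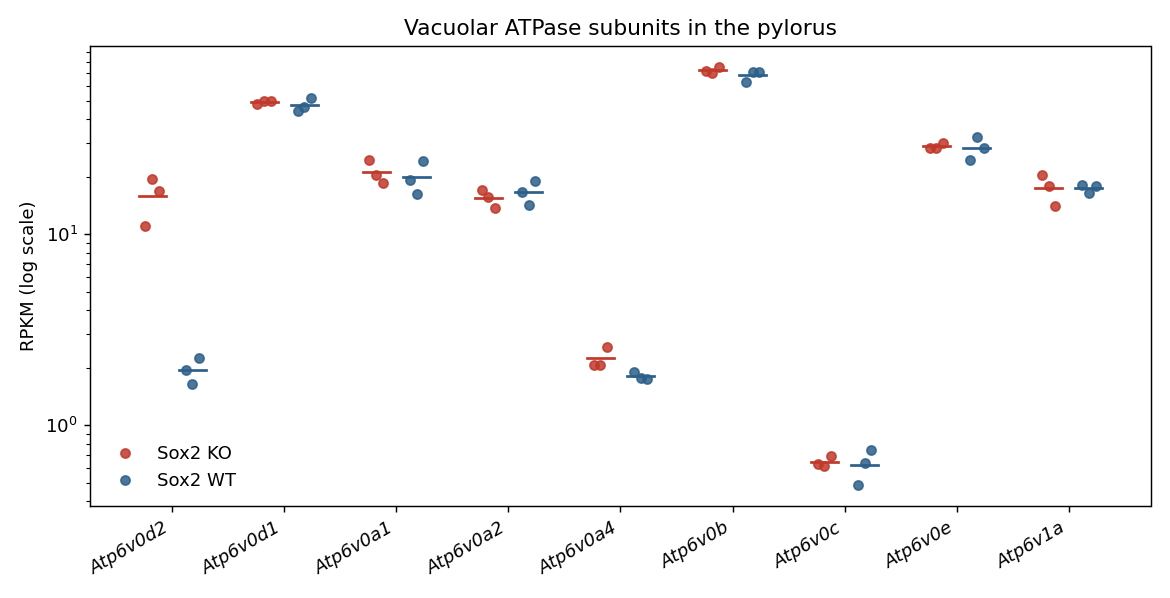
RPKM on a log axis of the 9 subunit genes that passed the filter on low values, with 1 point per library and a bar at each group mean, Sox2 KO in red and Sox2 WT in blue. Atp6v0d2 sits between 11.1 and 19.5 RPKM in Sox2 KO libraries and between 1.65 and 2.24 RPKM in Sox2 WT libraries, while Atp6v0d1 lies between 44.2 and 51.5 RPKM over all 6.

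The widespread paralog did not pass the test. Atp6v0d1 was at 48.2, 49.9 and 49.7 RPKM in Sox2 KO libraries, against 44.2, 46.5 and 51.5 RPKM in Sox2 WT libraries. The groups overlapped (log2 fold change 0.06, SE 0.103, limma adjusted p = 1). The RPKM of Atp6v0d2 was 23.1%, 39.1% and 33.7% of that of Atp6v0d1 in Sox2 KO libraries, against 4.4%, 3.54% and 4.36% in Sox2 WT libraries. Atp6v0d1 therefore remained the more abundant d transcript in every library.

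Atp6v0d2 made up 18.8%, 28.1% and 25.2% of the summed RPKM of both d genes in Sox2 KO libraries, against 4.21%, 3.42% and 4.18% in Sox2 WT libraries. The mean share was 24 ± 4.77% in Sox2 KO libraries and 3.94 ± 0.446% in Sox2 WT libraries (SD, n = 3 each), a difference of 20.1 percentage points. The summed level of the pair was 59.3, 69.5 and 66.5 RPKM in Sox2 KO libraries, against 46.1, 48.1 and 53.7 RPKM in Sox2 WT libraries, a ratio of means of 1.32. The groups did not overlap in the share or in the sum. As the sum contains Atp6v0d2, neither was tested.

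**Figure D2:**
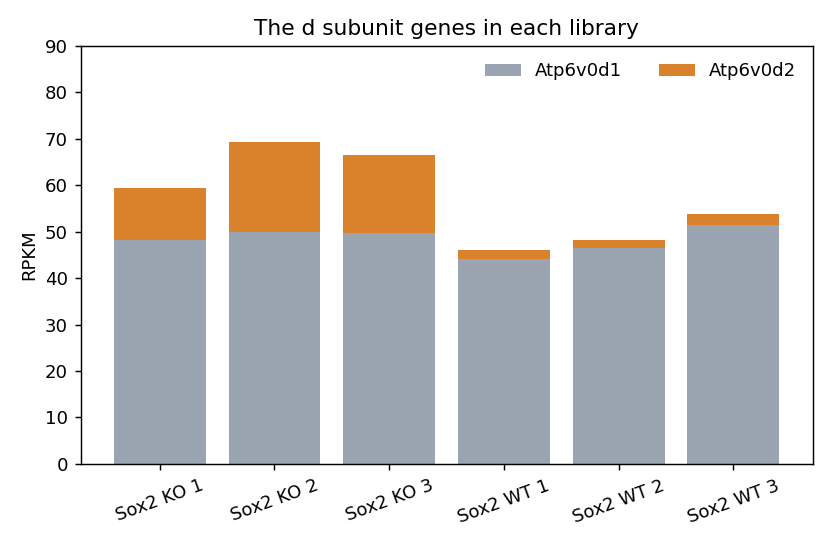
RPKM of Atp6v0d1 (grey) and Atp6v0d2 (orange) stacked for each library, Sox2 KO replicates first. The grey part is of similar height in all 6 bars, and the orange part is 18.8% to 28.1% of the bar in Sox2 KO libraries and 3.42% to 4.21% in Sox2 WT libraries.

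No other V0 gene passed the threshold, an adjusted p of 0.05. The a subunit, which carries the channels through which protons enter and leave the rotor ring, has 4 forms, and the 3 within the set were all measured. Atp6v0a1 (ENSMUSG00000019302), abundant in neurons, was at 24.5, 20.5 and 18.5 RPKM in Sox2 KO libraries, against 19.3, 16.3 and 24.2 RPKM in Sox2 WT libraries (log2 fold change 0.09, SE 0.17). Atp6v0a2 (ENSMUSG00000038023), a form of the Golgi and endosomes, was at 17.1, 15.7 and 13.7 RPKM in Sox2 KO libraries, against 16.7, 14.3 and 19.1 RPKM in Sox2 WT libraries (log2 fold change -0.10, SE 0.141). The groups overlapped for both genes, and the spread within each group was larger than the difference between group means.

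Atp6v0a4 (ENSMUSG00000038600), the form of kidney intercalated cells, was a low member whose groups did not overlap. It was at 2.07, 2.08 and 2.58 RPKM in Sox2 KO libraries, against 1.91, 1.77 and 1.74 RPKM in Sox2 WT libraries. The difference did not pass (log2 fold change 0.24, SE 0.126, limma adjusted p = 1), and 1778 of the 14045 genes tested had a larger one in absolute size. Exons of Tmem213 and D630045J12Rik overlap those of Atp6v0a4, and without strand information reads in the overlap cannot be told apart. Atp6v0a2 and Atp6v0b have such exon overlaps as well, with 4930404A12Rik and Gm12841.

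Subunits of the membrane ring and beside it did not pass the test. Atp6v0b (ENSMUSG00000033379), the c″ proteolipid, had the highest RPKM of the 10 genes. It was at 71.6, 69.5 and 75.2 RPKM in Sox2 KO libraries, against 62.7, 71 and 70.6 RPKM in Sox2 WT libraries (log2 fold change 0.08, SE 0.106). Atp6v0e (ENSMUSG00000015575), a small membrane subunit, was at 28.4, 28.3 and 30.1 RPKM in Sox2 KO libraries, against 24.6, 32.2 and 28.2 RPKM in Sox2 WT libraries (log2 fold change 0.04, SE 0.122). Both overlapped between groups.
Atp6v0c (ENSMUSG00000024121), which encodes the c proteolipid that forms most of the ring, was listed at 0.63, 0.61 and 0.692 RPKM in Sox2 KO libraries, against 0.486, 0.633 and 0.746 RPKM in Sox2 WT libraries (log2 fold change 0.03, SE 0.147). Of its transcript, 32.5% of all 50-base stretches also occur in the copies Atp6v0c-ps1 and Atp6v0c-ps2. How reads that match several places were counted is not given in the sources used here, so the level of Atp6v0c is uncertain.

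From the V1 sector, Atp6v1a (ENSMUSG00000052459), the catalytic A subunit, was at 20.5, 17.9 and 14.1 RPKM in Sox2 KO libraries, against 18.1, 16.5 and 17.9 RPKM in Sox2 WT libraries (log2 fold change -0.02, SE 0.147). The Sox2 KO values spanned those of Sox2 WT libraries. Atp6v1b1 (ENSMUSG00000006269), the B subunit form of kidney and inner ear, was at 0.036 RPKM in Sox2 KO replicate 2 and listed at 0 in the other 5 libraries. It failed the filter of a mean of at least 0.5 RPKM, so 9 of the 10 genes were tested.

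The count over the set was 1 gene higher and 0 lower in Sox2 KO libraries at the threshold, of 9 tested. Over all 14045 genes, 0.0142% were called higher and 0.0142% lower, 0.0285% in all. The 1 gene is Atp6v0d2, which was chosen on this contrast, so nothing is read from that count. It held when Sox2 KO replicate 1 was left out and was 0 when any other library was left out, and also 0 with sex as a covariate. Of the 8 other genes tested, 0 passed, and 0 had an unadjusted p under 0.05. Their median log2 fold change was 0.05, within a range of -0.10 to 0.24, beside a median of 0.02 over all genes tested. In 1 of these 8, Atp6v0a4, all Sox2 KO values lay above all Sox2 WT values, as in 4.09% of all genes tested. In 0 of the 8 did they lie below, as in 2.99% of all genes tested, so that the groups separated in either direction in 7.08% of all genes.

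The order of the subunits by RPKM differed between the groups at the place of Atp6v0d2. That order depends on the gene lengths used, and the level of Atp6v0c in it is uncertain. In Sox2 KO libraries the mean RPKM ran from Atp6v0b (72.1) through Atp6v0d1 (49.3), Atp6v0e (28.9), Atp6v0a1 (21.2), Atp6v1a (17.5), Atp6v0d2 (15.8), Atp6v0a2 (15.5) and Atp6v0a4 (2.24) to Atp6v0c (0.644). In Sox2 WT libraries it ran from Atp6v0b (68.1) through Atp6v0d1 (47.4), Atp6v0e (28.4), Atp6v0a1 (19.9), Atp6v1a (17.5), Atp6v0a2 (16.7), Atp6v0d2 (1.94) and Atp6v0a4 (1.81) to Atp6v0c (0.622). The values of Atp6v0d2 overlapped those of Atp6v0a1, Atp6v1a and Atp6v0a2 in Sox2 KO libraries and those of Atp6v0a4 in Sox2 WT libraries. Atp6v1a overlapped Atp6v0a1 and Atp6v0a2 in both groups, and those 2 overlapped each other in Sox2 WT libraries only. The RPKM of Atp6v0d2 averaged 94.2% of that of Atp6v1a in Sox2 KO libraries and 11.1% in Sox2 WT libraries.

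The remaining genes of the enzyme, 18 subunit, accessory and assembly genes, held no call. Of these, 15 passed the filter, and 0 were higher and 0 lower at the threshold, beside 0.0285% called of all genes tested. Their median log2 fold change was 0.04, within a range of -0.38 to 0.18. Only Atp6v0e2, at the low end of that range, had an unadjusted limma p under 0.05, as 3.15% of all genes tested did. Tcirg1, the a3 form that osteoclasts place in the bone-facing membrane, was at 8.32, 7.56 and 7.55 RPKM in Sox2 KO libraries, against 6.9, 6.34 and 7.3 RPKM in Sox2 WT libraries. Its groups did not overlap (log2 fold change 0.18, SE 0.104, limma adjusted p = 1).

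**Figure D3:**
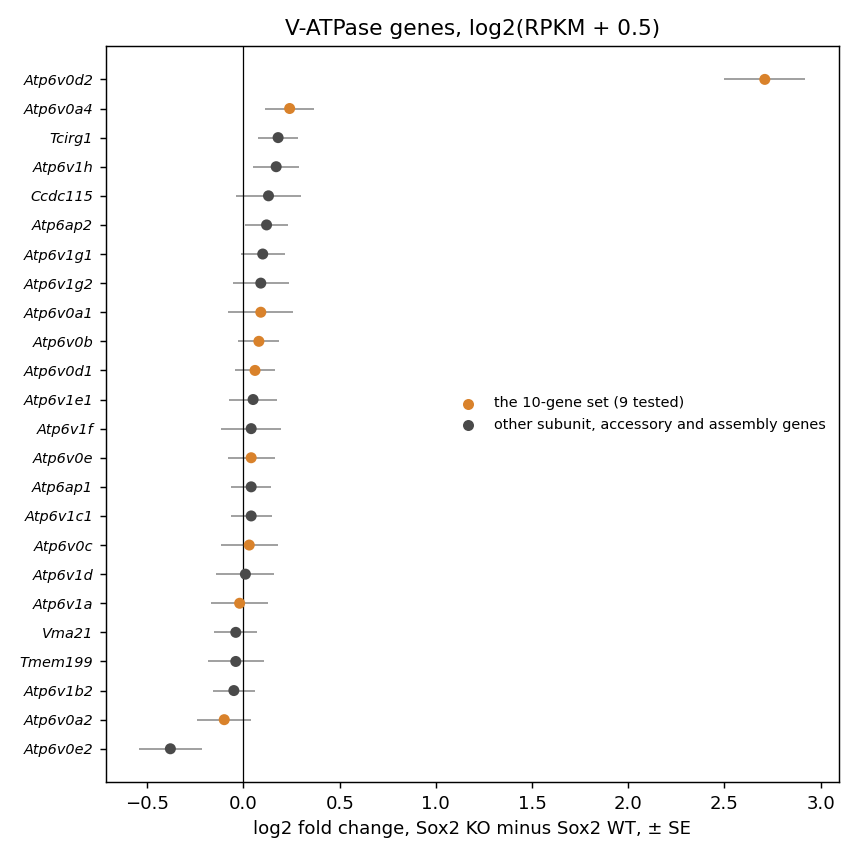
Log2 fold change, Sox2 KO minus Sox2 WT, with its SE, for the 24 tested V-ATPase genes ordered by size, the chosen subunits in orange and the other genes of the enzyme in grey. Atp6v0d2 stands at 2.71 and the other 23 genes lie between -0.38 and 0.24.

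In no other subunit with more than 1 form did a share differ by as much as the 20.1 points of the d forms. Of the summed RPKM of the 4 a forms, Atp6v0a1 made up 45.2 ± 1.73% in Sox2 KO libraries and 43.8 ± 2.12% in Sox2 WT libraries (SD, n = 3 each). Atp6v0a2 made up 32.9%, 34.2% and 32.3% in Sox2 KO libraries, against 37.2%, 36.8% and 36.5% in Sox2 WT libraries, a difference of -3.73 percentage points without overlap. The shares of Tcirg1, 16.8% in Sox2 KO libraries and 15.2% in Sox2 WT libraries, and of Atp6v0a4, 4.87% in Sox2 KO libraries and 4.06% in Sox2 WT libraries, overlapped between the groups.

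Of the e forms, Atp6v0e2 made up 7.58%, 8.91% and 9.11% in Sox2 KO libraries, against 13.3%, 12% and 9.42% in Sox2 WT libraries. The gap between the closest libraries of the 2 groups was small beside the spread among Sox2 WT libraries. Shares of a few genes fixed to the same sum move against each other, and none of these was tested. They also depend on the gene lengths used. For Atp6v0e the values imply a length of 3433 bases, beside 442 bases in its transcript with the longest coding sequence.
The B, C and E subunits came almost wholly from Atp6v1b2, Atp6v1c1 and Atp6v1e1, each with at least 99.8% of its summed RPKM in every library. Atp6v1c2 and Atp6v1e2 failed the filter. Of the G forms, Atp6v1g1 dominated, Atp6v1g2 averaged 2.83% in Sox2 KO libraries and 2.73% in Sox2 WT libraries, and Atp6v1g3 was listed at 0 in all 6 libraries. The accessory subunits Atp6ap1 and Atp6ap2, which take part in assembly of the pump, did not pass the test, with Atp6ap1 at a log2 fold change of 0.04 (SE 0.104) and Atp6ap2 at 0.12 (SE 0.111).

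Promoter sequences from RefSeq (GRCm38.p6), 250 bases before to 50 after the start, were found for 8 of the 10 genes. None was found for Atp6v0d2 or Atp6v0a2, so the promoters of these genes were not examined. The windows of the abundant Atp6v0d1 and the low Atp6v0a4 are shown because they differ widely in CG content. CG pairs, in capitals, number 26 in the window of Atp6v0d1, at chr8:105566015-105566314, and 1 in that of Atp6v0a4, at chr6:38124537-38124836. Both are on the minus strand and are printed from 5′ to 3′.
Atp6v0d1: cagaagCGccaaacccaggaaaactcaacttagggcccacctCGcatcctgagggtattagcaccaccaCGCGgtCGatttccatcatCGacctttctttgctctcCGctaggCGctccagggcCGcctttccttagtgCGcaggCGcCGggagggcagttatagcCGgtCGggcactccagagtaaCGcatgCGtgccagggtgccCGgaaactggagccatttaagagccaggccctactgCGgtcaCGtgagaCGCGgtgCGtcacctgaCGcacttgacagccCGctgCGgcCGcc
Atp6v0a4: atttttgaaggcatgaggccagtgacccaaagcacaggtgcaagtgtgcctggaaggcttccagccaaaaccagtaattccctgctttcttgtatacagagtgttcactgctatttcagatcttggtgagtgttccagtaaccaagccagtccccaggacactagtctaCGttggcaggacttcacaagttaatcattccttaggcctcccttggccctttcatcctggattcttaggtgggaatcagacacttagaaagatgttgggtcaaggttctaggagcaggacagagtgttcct
Taking for a gene with several windows, such as Atp6v0c, the one richest in CG, the median was 15 CG pairs over the 8 genes and 22 over tested genes. The letters CACGTG, which read the same on both strands and form the core of the element through which the lysosomal regulator TFEB binds, occurred in a window of 4 of the 8 genes, Atp6v0d1, Atp6v0b, Atp6v0e and Atp6v1a. Of the other V-ATPase genes, 2 of 14 (14.3%) held them in a window, as did 11.7% of tested genes and 8.09% of all 27025 genes with a window. A match describes the letters only and is not evidence of binding.

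Lysosomal genes, which serve the organelle the pump acidifies, had log2 fold changes between -0.29 and 0.22. Of 27 genes of lysosomal enzymes, membrane proteins and their regulators, all were tested, and the median log2 fold change was 0.05, beside 0.02 over all genes tested. The threshold was passed by 0 of the 27 and by 0.0285% of all genes tested, so the count of 0 says little about the list. The most abundant were Lamp1, a lysosomal membrane protein (log2 fold change 0.04, SE 0.132), and Psap, the precursor of the saposins (log2 fold change 0.13, SE 0.13). Of 13 genes of the Ragulator and Rag complex, which docks mTORC1 on lysosomes and binds the V-ATPase, 0 were called and the median was 0.03, with Lamtor2 at 0.08 and Rraga at -0.05. Of 14 tested genes of acid and base transport, 0 were called and the median was -0.00, with the carbonic anhydrase gene Car2 at 0.16 and the H,K-ATPase gene Atp4b at 0.26. Atp4b was at 745, 815 and 423 RPKM in Sox2 KO libraries, within the span of the 430, 1660 and 209 RPKM in Sox2 WT libraries. The direction of Atp4b rested on single libraries: the Atp4b log2 fold change was 1.08 without Sox2 WT replicate 2 and -0.41 without Sox2 WT replicate 3, and the ratio of mean RPKM was 0.864.

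Markers of cell types known to use restricted pump forms were read beside Atp6v0d2. Over all genes tested 0.0285% were called, so a count of 0 in this or a later list says little about that list. Of 10 macrophage markers, all tested, 0 were called and the median log2 fold change was 0.02. Their summed level was 110 to 169 RPKM in Sox2 KO libraries and 106 to 182 RPKM in Sox2 WT libraries, and the most abundant, Lyz2 and C1qb, had log2 fold changes of -0.00 and -0.01. With each library left out in turn, the Lyz2 log2 fold change ran from -0.24 to 0.29 and the C1qb log2 fold change from -0.20 to 0.13. Of 6 dendritic cell markers, 2 passed the filter, Cd209a (0.18, and 0.03 to 0.47 with each library left out) and Itgax (0.24, and -0.03 to 0.51 likewise), and neither was called. The dendritic sum was 2.26 to 4.33 RPKM in Sox2 KO libraries and 2.37 to 3.38 RPKM in Sox2 WT libraries.

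Of 6 osteoclast markers, Acp5 (log2 fold change 0.14, and 0.04 to 0.24 with each library left out) and Ctsk (0.06) passed the filter, 0 were called, Calcr was listed at 0 and Dcstamp, Ocstamp and Oscar were under the filter. The osteoclast sum was 48.6 to 62.2 RPKM in Sox2 KO libraries and 46.3 to 57 RPKM in Sox2 WT libraries. Of 7 markers of kidney intercalated cells, Insrr alone passed the filter (log2 fold change -0.08, and -0.17 to 0.08 with each library left out) and was not called. Slc4a9 and Aqp6 were listed at 0 in all 6 libraries, and Foxi1, Slc4a1 and Slc26a4 were at most 0.0438 RPKM. Hmx2, under the filter, was at 0.507, 0.636 and 0.429 RPKM in Sox2 KO libraries, against 0.255, 0.18 and 0.285 RPKM in Sox2 WT libraries. The intercalated sum was 1.02 to 1.34 RPKM in Sox2 KO libraries and 0.844 to 1.22 RPKM in Sox2 WT libraries.

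Several markers of goblet and tuft cells had higher values in Sox2 KO libraries, though none passed the threshold. Of 8 goblet cell markers, 7 were tested, 0 were called, and the median log2 fold change was 1.39. In 4 of these 7 all Sox2 KO values lay above all Sox2 WT values, as in 4.09% of all genes tested. The goblet sum was 3740 to 5290 RPKM in Sox2 KO libraries and 1110 to 2840 RPKM in Sox2 WT libraries, the most abundant being Clca3 (2.62, SE 0.69) and Agr2 (-0.48, SE 0.309). The Clca3 log2 fold change was 1.80 without Sox2 WT replicate 2 and 3.27 without Sox2 WT replicate 3, and the Agr2 log2 fold change was -0.24 without Sox2 WT replicate 3. Muc2, the intestinal mucin, was under the filter. Of 8 tuft cell markers, 7 were tested, 0 were called, the median was 1.06, and in 6 of the 7 the groups did not overlap. The tuft sum was 150 to 193 RPKM in Sox2 KO libraries and 103 to 185 RPKM in Sox2 WT libraries. Most of that sum was Avil, at 170, 140 and 129 RPKM in Sox2 KO libraries, against 125, 93.4 and 175 RPKM in Sox2 WT libraries. Avil overlapped between groups (0.20, SE 0.235, and -0.02 without Sox2 WT replicate 2), while Sh2d6 stood at 1.47 (SE 0.222). The sum therefore says little about the other tuft cell markers. Il25 was under the filter. No marker of either list was at 0 in all libraries, and the part of these cells in the level of Atp6v0d2 was not tested.

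Of 8 enterocyte markers, 6 were tested, 0 were called and the median was 0.20, with Apoa1 at 0.29 and Vil1 at 0.11, and Sis and Mep1a were listed at 0. The enterocyte sum was 219 to 314 RPKM in Sox2 KO libraries and 193 to 438 RPKM in Sox2 WT libraries. Of 5 parietal cell markers, 4 were tested, 0 were called and the median was 0.25, with Atp4a at 0.27, and the sum was 724 to 1410 RPKM in Sox2 KO libraries and 372 to 2720 RPKM in Sox2 WT libraries. Single Sox2 WT libraries set the direction of the most abundant of these genes. The Apoa1 log2 fold change was 1.01 without Sox2 WT replicate 2 and -0.36 without Sox2 WT replicate 3, the Atp4a log2 fold change was 1.02 and -0.40 in the same order, and the Vil1 log2 fold change was -0.12 without Sox2 WT replicate 2. The ratio of mean RPKM was 0.93 for Atp4a and for Apoa1. Of the 6 pyloric epithelium markers 0 were called, and the median was 0.18, with Tff1 at 0.16 and Gkn2 at 0.29, or 0.03 to 0.40 and 0.09 to 0.55 with each library left out in turn.

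The genes most like Atp6v0d2 were ranked by Pearson r of log2 values over the 6 libraries, among 976 genes. Because the groups separate, any gene with a large group difference ranks high, and r is given as a description. Among the highest were Itln1, an intelectin of goblet and Paneth cells (r = 0.993), and Gng13, which encodes a G protein gamma chain (0.983). Itln1 belongs to the goblet cell markers above and Gng13 to the tuft cell markers. Also among the highest were Lrmp, a membrane protein of lymphoid and taste cells (0.983), and Vav1, a guanine exchange factor of blood cells (0.978). With the group means removed, r was 0.96 for Itln1, 0.61 for Gng13, 0.93 for Lrmp and 0.76 for Vav1. These genes were picked for a high r in the same 6 libraries, so these values too are a description only.

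Itln1 was at 57.4, 266 and 177 RPKM in Sox2 KO libraries, against 3.03, 3.34 and 6.68 RPKM in Sox2 WT libraries (log2 fold change 4.93, SE 0.549, limma adjusted p = 0.0577). Like Atp6v0d2, it was lowest in replicate 1 and highest in replicate 2 of the Sox2 KO libraries. The log2 fold changes of Gng13, Lrmp and Vav1 were 1.24, 0.78 and 0.80, and none of the 3 passed.

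**Figure D4:**
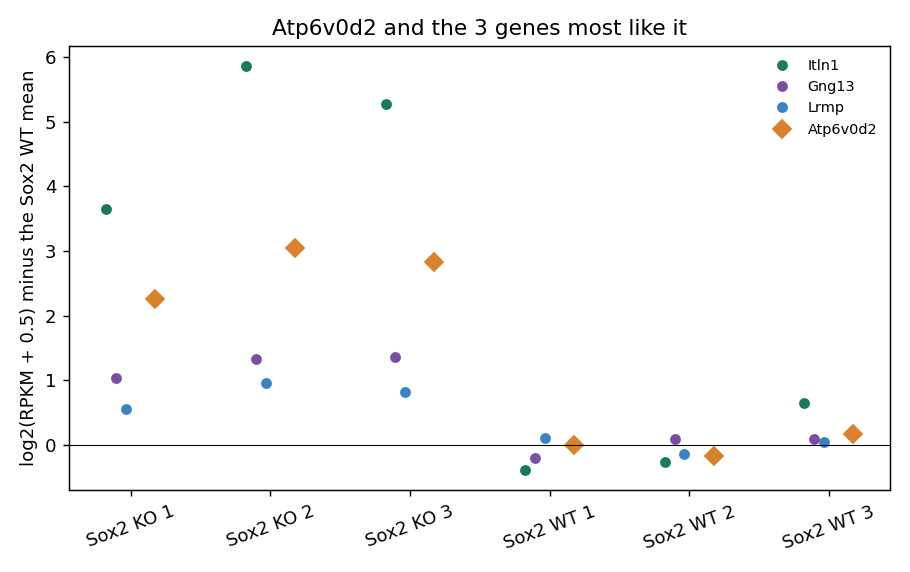
Log2(RPKM + 0.5) minus the mean of the Sox2 WT libraries, for Atp6v0d2 (orange diamonds) and the 3 genes with the highest r to it, in each library. All 4 genes lie above their Sox2 WT values in each Sox2 KO library, with log2 fold changes from 0.78 for Lrmp to 4.93 for Itln1.

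The lowest r belonged to Sox2 (-0.981), to Stc2, a secreted glycoprotein (-0.977), and to Gsdmc2, a gasdermin (-0.966). Stc2 was at 2.75, 2.1 and 1.91 RPKM in Sox2 KO libraries, against 6.21, 6 and 7.42 RPKM in Sox2 WT libraries (log2 fold change -1.36, SE 0.15, limma adjusted p = 0.0577). Stc2, like Itln1, passed when Sox2 KO replicate 1 was left out. Gsdmc2 was at 0.801, 0.594 and 0.808 RPKM in Sox2 KO libraries, against 5.61, 4.45 and 7.06 RPKM in Sox2 WT libraries, and passed with a log2 fold change of -2.31 (SE 0.178, limma adjusted p = 0.0123). Among other settings, its call was lost without Sox2 KO replicate 2 or 3, without Sox2 WT replicate 1 or 3, without a filter and under both sex settings, while the Gsdmc2 log2 fold change stayed between -2.47 and -2.16 in these and with each library left out. With the group means removed, r to Atp6v0d2 was -0.09 for Sox2, -0.45 for Stc2 and 0.09 for Gsdmc2.

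Among the other V-ATPase genes, the highest r to Atp6v0d2 over the 6 libraries was 0.81 for Atp6v0a4, followed by 0.75 for Tcirg1, and the lowest was -0.72 for Atp6v0e2. The value for the paralog Atp6v0d1 was 0.48.

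Of the genes next to Atp6v0d2 on chromosome 4, Wwp1, Ttpa and Ggh were tested and none was called. Slc7a13, Gm12353 and Nkain3 were not tested. Over all genes tested 0.0285% were called, so the lack of a call says little about the locus. Toward lower coordinates, Slc7a13, an amino acid transporter gene at 34.6 kb, was at most 0.0161 RPKM, and Wwp1, a ubiquitin ligase gene at 168 kb, was at 16.6, 14.9 and 12.8 RPKM in Sox2 KO libraries, against 12.4, 14.5 and 12.4 RPKM in Sox2 WT libraries (log2 fold change 0.16, SE 0.128). Gm12353, at 226 kb, was under the filter. Toward higher coordinates, Ttpa, the vitamin E transfer protein gene at 85.3 kb, was at 0.694, 0.87 and 0.872 RPKM in Sox2 KO libraries, against 0.571, 0.635 and 0.585 RPKM in Sox2 WT libraries (log2 fold change 0.26, SE 0.135, limma adjusted p = 1). Its groups did not overlap. Ggh, a lysosomal hydrolase of folates at 119 kb, did not pass (log2 fold change 0.18, SE 0.168), and Nkain3, at 196 kb, was at most 0.00496 RPKM.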

How the data were processed

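The values are RPKM computed and deposited by the authors for 39179 Ensembl genes in 6 libraries. The submitters' processing notes name CASAVA 1.7, STAR and the build mm10. For the counting tool, annotation and strandedness, the sources used here give nothing. The series table equals the single-library tables in every value. Coordinates, exons and transcripts came from GENCODE mouse release M21 on GRCm38, which is mm10.

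From these values, log2(RPKM + 0.5) was tested with limma 3.58.1 (R 4.3.3), using a mean-variance trend, over genes with a mean of at least 0.5 RPKM, keeping of rows that shared a symbol the one with the highest mean. The fit covered 14045 genes. A positive fold change means higher in Sox2 KO, and the Benjamini-Hochberg adjusted p had a threshold of 0.05. The fit was tested on simulated data without a sex difference between groups, so that test does not cover the sex imbalance of these libraries.

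Whole reads were recovered as the smallest whole numbers whose ratios give the RPKM of a gene in the 6 libraries. All of 400 sampled genes came out whole within 0.0001 reads. True reads could be a multiple of these.

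The 10 genes, the gene lists and the rule for named genes were chosen with earlier results of these data known. The rule takes all 10 genes, the V-ATPase genes with several forms and the accessory genes, from each list the members past the threshold or else the 2 with the highest mean, Sox2, the 5 highest and 3 lowest r to Atp6v0d2 (mean of at least 1 RPKM, log2 range of at least 1, no predicted or sex-linked genes) and the 3 nearest protein-coding genes on each side. Other genes listed at 0 or under the filter, Hmx2 among them, were outside it and were named after their values were seen. A gene named by this rule and a sequence are not reported here. Alternatives covered the pseudocount, filter, scaling, replicate block, sex, threshold, variance trend and each library left out.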

Additional observations from a re-analysis of the deposited data

How the results depend on the processing

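The log2 fold change of Atp6v0d2 was 2.48 to 2.93 over all alternatives tried, 2.54 to 2.93 with each library left out in turn, 2.71 with the replicate number as a block, and 2.70 with sex as a covariate or in male libraries alone. Both sex settings set the Sox2 KO libraries against Sox2 WT replicate 1 alone. The difference in its share of d subunit RPKM was 18.1 to 22.7 percentage points with each library left out in turn, 19.8 in male libraries alone and 20.3 after quantile normalization. The count of genes past the threshold, 4 as reported, was 1 with the replicate block, 1 with sex as a covariate, 0 in male libraries alone, 8 at an adjusted p under 0.1, and 1 to 8 with each library left out. The count among the 10 subunits, 1 as reported, was 0 without a filter, 0 with the replicate block, 0 with sex as a covariate, 0 in male libraries alone, and 0 to 1 with each library left out, being 1 only without Sox2 KO replicate 1. The causes of these changes were not tested. The count among the other V-ATPase genes was 0 throughout. Of 127 values of the other subunits under the alternatives, 119 lay within 1 SD of the reported value and 10 had the other sign. The 8 beyond 1 SD were Atp6v0d1, Atp6v0b, Atp6v0c and Atp6v0e under the sex settings, where the median of the V-ATPase genes without Atp6v0d2 was 0.18 in place of 0.04, and that of all genes 0.05. Same-numbered libraries had correlations of 0.00879, 0.097 and -0.074 of their deviations, so the replicate numbers were not taken to pair them. Each group had only 3 libraries. Separately, counting error is larger relative to the value for genes with few reads. Atp6v0c had 45 to 90 recovered reads a library, and Atp6v1b1 was above 0 in Sox2 KO replicate 2 alone.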
